A study of Rattus norvegicus with 2 samples.

Results

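The genes described here encode the cytosolic ribosomal proteins, and they were followed in RMT-1 cells, a rat mammary tumour line (clone E4). Cells of 1 array had received a negative control siRNA and cells of the other an siRNA against Pla2g4c, which encodes a cytosolic phospholipase A2. The title of the series concerns apoptosis after Pla2g4c is repressed. Both groups were the same clone, time after transfection was not stated in the labels, and no probe was named Pla2g4c, so its repression was not checked. Members were all genes whose current rat symbol is Rpl or Rps followed by a number, Rplp0 to Rplp2, or Rpsa. Rps6k kinases, pseudogenes and Rps19bp1 were left out. That rule found 81 genes among 15153 named genes with a probe, 50 of the large subunit and 31 of the small one. They had 142 of the 30367 gene probes and 241 spots, of which 0 were saturated and 0 carried an outlier flag. Of the 81 genes, 77 were measured, meaning well above background on both arrays, with 47 in the large and 30 in the small subunit. Over the whole platform 9022 named genes were measured.

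Each ribosome is built from a large subunit, which joins amino acids, and a small subunit, which reads the mRNA. Their proteins are made in matched amounts from many separate genes, and proliferating cells spend much of their transcription and translation on them. In mammals the mRNAs of these proteins typically start with a C followed by a run of pyrimidines, the terminal oligopyrimidine (TOP) tract, through which mTOR signalling and the protein Larp1 control their translation and stability. Free ribosomal proteins, Rpl5 and Rpl11 above all, can bind the ubiquitin ligase Mdm2 when ribosome supply is faulty.

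The annotated starts of the genes are shown because a gene list below was chosen for mRNAs known for a TOP tract. Starts of the genes in that list were not looked at separately. RefSeq's table of start regions (GRCr8) held an entry for 66 members. The first transcribed base was C and was followed by at least 4 letters C or T in 23 of the 66 (34.8%). The same held for 463 of 18999 protein-coding genes (2.44%). The tract was found in 16 of 41 large subunit genes and 7 of 25 small subunit genes. Each sequence below runs 5′ to 3′ along the gene's strand, with 15 bases before the start and 15 from it, and the tract is in capitals. These 8 genes are taken from both ends of the range of differences.
Rps7, chr6:50999431-50999460, minus strand: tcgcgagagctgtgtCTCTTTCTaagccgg
Rps26, chr7:1643390-1643419, minus strand: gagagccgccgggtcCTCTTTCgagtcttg
Rpl10a, chr20:6390518-6390547, plus strand: gaaaccttctgccttCTTTTCCggttcccg
Rps18, chr20:4933730-4933759, plus strand: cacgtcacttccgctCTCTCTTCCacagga
Rpl10, chrX:157205835-157205864, plus strand: caggcgtgggagcgtCTCTTTTCCTCTggc
Rpl19, chr10:83519049-83519078, plus strand: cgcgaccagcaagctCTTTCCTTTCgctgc
Rplp0, chr12:46718376-46718405, minus strand: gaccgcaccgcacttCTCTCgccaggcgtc
Rps27, chr2:177964592-177964621, minus strand: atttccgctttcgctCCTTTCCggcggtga
In the next 4 genes the annotated start does not open such a tract, so all letters are lower case. Rpl12, Rpl11 and Rpl3 are among the genes with the lowest values, and Rps6 carries the best-known phosphorylation site of the small subunit.
Rpl12, chr3:36661925-36661954, plus strand: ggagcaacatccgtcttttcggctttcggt
Rpl11, chr5:153560788-153560817, minus strand: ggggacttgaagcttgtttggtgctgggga
Rpl3, chr7:113507976-113508005, minus strand: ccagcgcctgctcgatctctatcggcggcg
Rps6, chr5:106420526-106420555, minus strand: gacgcctcctaggcggtcggctgtgtcaag
A tract absent at an annotated start says only that these letters do not stand there. In the whole 300-base window, from 250 before to 50 after the start and on either strand, CCGGAAG (an ETS family motif) was present in 28.8% of members and 11.2% of all genes. AAGATGG (the core of the YY1 motif) was present in 12.1% and 7.58%, and TATAAA in 10.6% and 13.1%. CCGGAAG and AAGATGG can share the letters AAG, and a match is a description of the sequence only. The difference between the arrays was alike whether or not the annotated start opened a tract, with a median of -0.66 over 23 measured genes with it and -0.63 over 39 without it.

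All 77 measured ribosomal protein genes gave a lower signal in the cells with the Pla2g4c siRNA than in the control cells. The values are log2 of the scanner software's processed signal with the 75th percentile of each array set to 0, and a difference is always cells with the Pla2g4c siRNA minus control cells. The median difference was -0.65, with quartiles of -0.74 and -0.56 and an SD of 0.21 across genes, while the median of all 9022 genes was -0.01. Over all genes 51% lay below 0. The difference of each of the 77 was larger than the scanner software's error, which was 0.20 for each of them. That error, given as ± below, covers technical error within the arrays only. Neither a replicate check nor a test was possible with a single array for each siRNA, so the values describe these 2 arrays and not the conditions.

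**Figure D1:**
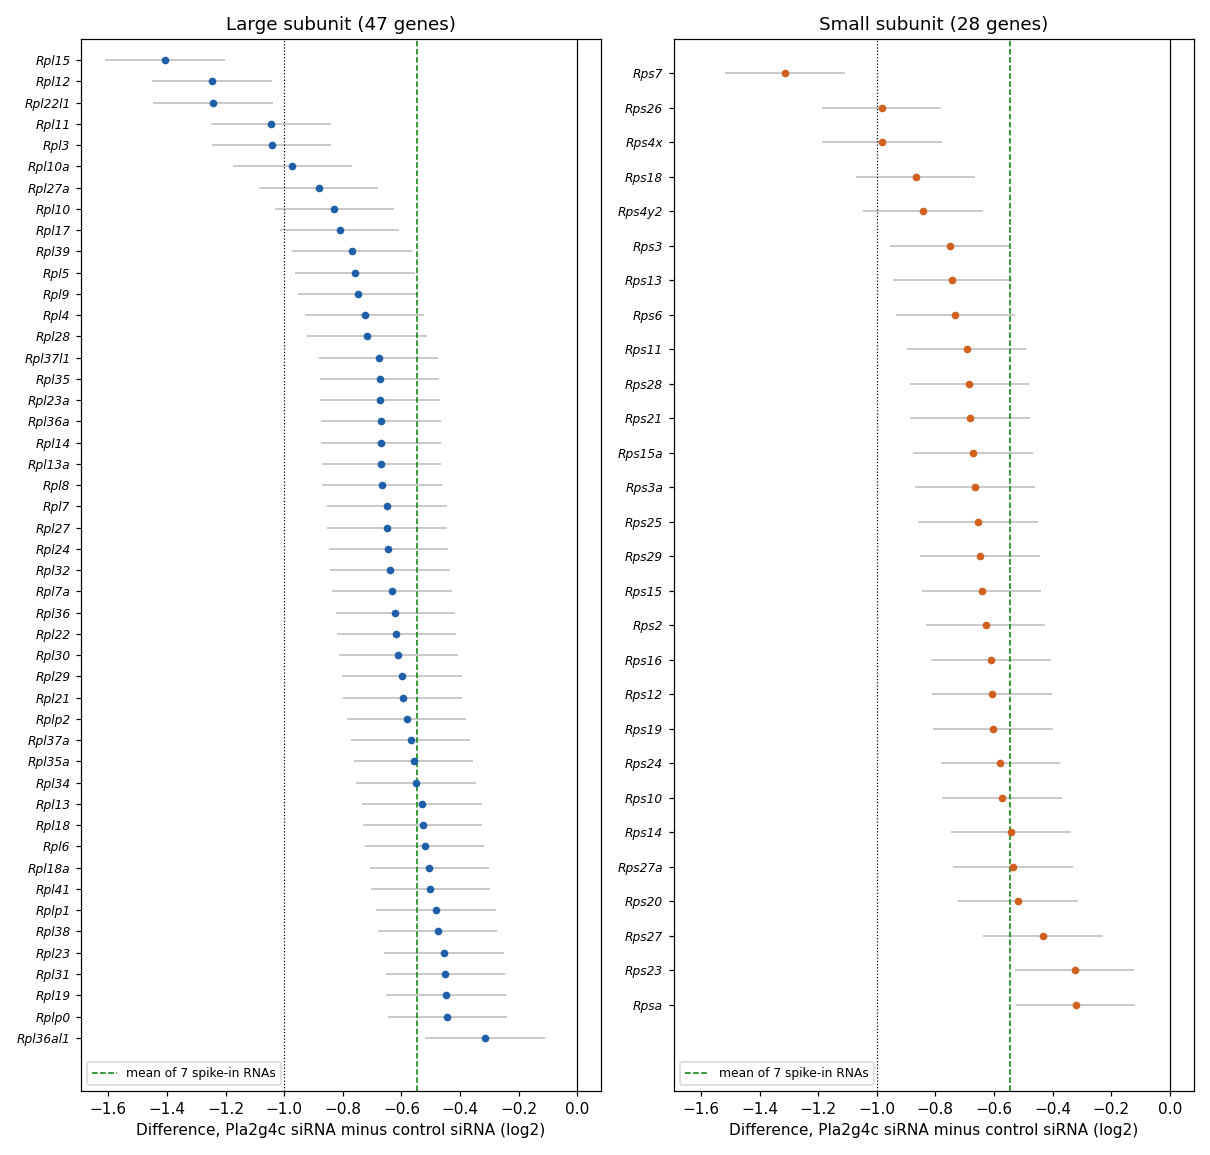
Difference between the arrays (log2, Pla2g4c siRNA minus control siRNA) for the 47 large subunit and 28 of the 30 small subunit genes measured, with bars for the scanner error; the dotted line marks 2-fold lower and the dashed line the mean of 7 spike-in RNAs. All points lie left of 0, from Rpl15 at -1.41 to Rpl36al1 at -0.31, and most sit close to the dashed line.

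The subunits had nearly equal medians. The large subunit had a median of -0.64 and the small subunit of -0.65, so that large minus small was 0.01. Whether the subunits differ was not tested. The range was -1.41 to -0.31 in the large subunit and -1.31 to -0.32 in the small one. At least 2-fold lower were 6 genes, 5 of the large subunit and 1 of the small, and 0 were 2-fold higher. Over all genes 3.05% were 2-fold lower and 2.92% 2-fold higher. At 1.5-fold, 53 of the 77 were lower and 0 higher, against 10.3% and 8.69% of all genes.

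Spots printed more than once on an array gave a measure of noise within it. For all 79 member probes with at least 2 spots, every spot of the Pla2g4c siRNA array lay below every spot of the control array. Among 8105 named probes with at least 2 spots this held for 39.2%. The SD between spots of 1 probe had a median of 0.05 in control cells and 0.06 in cells with the Pla2g4c siRNA.

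Rpl15, a large subunit protein needed early in assembly of that subunit (NCBI Gene 245981), stood lowest. It was read by 1 probe, whose mean signal over both arrays, -0.55, was the lowest of the 77 members, against a median of 6.93. That probe was printed in 10 spots, which repeat the same probe and are no second reading of the gene. The spots ran from 0.04 to 0.27 with a median of 0.14 in control cells. In cells with the Pla2g4c siRNA they ran from -1.34 to -1.15 with a median of -1.26. No spots overlapped, and the gene was lower by 1.41 ± 0.20 on the log2 scale, or 2.65-fold. Rps7 (29258), a small subunit protein that can also bind Mdm2, came next with a signal of 6.63 in control cells and 5.31 in cells with the Pla2g4c siRNA. Its difference of -1.31 ± 0.20 rests on 1 spot. Rpl12 (499782), which anchors the factor-binding stalk of the large subunit, went from 7.15 to 5.90 and differed by -1.25 ± 0.20. Its 2 probes gave -1.32 and -1.17.

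Rpl22l1 (361923), a paralogue of Rpl22 that can take its place in the ribosome, went from 3.13 to 1.89 and differed by -1.24 ± 0.20. Its 2 probes gave -1.29 and -1.20. Rpl22 itself was lower by 0.62 ± 0.20, from 6.56 to 5.94, so the paralogue differed from its partner gene by more than the scanner error. Rpl11 (362631), part of the 5S RNA particle, went from 7.60 to 6.56 and differed by -1.04 ± 0.20. Rpl3 (300079), which reaches into the peptidyl transferase centre, also differed by -1.04 ± 0.20, from 7.27 to 6.23. Rpl11 and Rpl3 lie just inside the 2-fold line, and Rps26 and Rps4x, both at -0.98, lie just outside it.

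The order within the family was graded, with no gap between the genes called at 2-fold and the next. Rps26, which lines the mRNA exit channel, went from 5.90 to 4.92. Rps4x, the X-linked S4 protein, was printed in 10 spots that ran from 6.15 to 6.32 in control cells and from 5.19 to 5.34 in cells with the Pla2g4c siRNA. Neither spot range met the other. Rpl10a, of the stalk at the exit site for used tRNA, went from 7.05 to 6.07 and differed by -0.97 ± 0.20. Rpl27a was at -0.88, Rps18 at -0.87, Rps4y2, an S4 paralogue, at -0.84 and Rpl17 at -0.81. At the other end, Rpl36al1, a paralogue of Rpl36a, went from 4.04 to 3.73 and differed by -0.31 ± 0.20. Rpsa, the small subunit protein also known as the laminin receptor precursor, went from 5.08 to 4.76 and differed by -0.32. Rps23, which sits at the decoding centre, went from 6.92 to 6.59 and differed by -0.33. Rps27 was at -0.43, Rps20 at -0.52, Rps27a at -0.54, Rps14 at -0.54, Rpl19, Rpl31 and Rpl23 each at -0.45, and Rpl38 at -0.48. Differences between neighbours in this order are smaller than the scanner error.

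Many members are read by more than 1 probe, which allows a check within a gene. Of 46 genes with at least 2 measured probes, all probes were lower in 46. The probes of a gene spread by a median of 0.07 on the log2 scale, less than the scanner error, and by more than 0.2 in 7 genes. The widest spread was in Rps2, at the mRNA entry channel, whose 4 probes gave -0.84, -0.80, -0.49 and -0.39. The probes of Rps23 gave -0.46, -0.34 and -0.17, and those of Rpl35 -0.78, -0.77 and -0.47. Order within the family is therefore not settled for these genes. With this scaling the direction was shared by every probe. The rat genome also holds 883 annotated ribosomal protein pseudogenes by the same symbol rule, and transcripts of near-identical copies could reach the same probe.

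**Figure D2:**
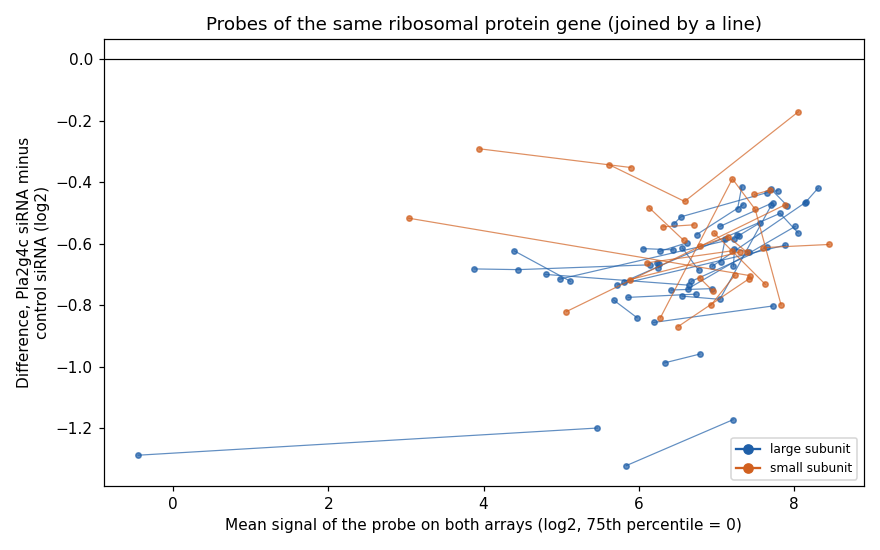
Difference (log2, Pla2g4c siRNA minus control siRNA) of each probe against its mean signal (log2) for the 46 genes with at least 2 measured probes, with the probes of a gene joined by a line. All probes lie below 0, and most lines are short in the vertical direction, with a median spread of 0.07.

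By position in the ribosome, the 3 P stalk proteins, which recruit elongation factors, all lay above the family's median. Rplp0 went from 8.45 to 8.01 and was at -0.44, Rplp1 was at -0.48 and Rplp2 at -0.58. The 5S particle had Rpl11 at -1.04 and Rpl5 at -0.76. The proteins next to the peptidyl transferase centre were Rpl3 at -1.04, Rpl10 at -0.83 and Rpl8 at -0.67. The 9 measured proteins of the exit tunnel and its rim, where the new chain leaves, had a median of -0.67, from Rpl17 at -0.81 to Rpl19 at -0.45. Rpl39 was at -0.77, Rpl4 at -0.73, Rpl35 at -0.67, Rpl23a at -0.67, Rpl22 at -0.62 and Rpl29 at -0.60. All of these groups are small. The range of the P stalk overlapped that of the exit tunnel, and it lay above those of the 5S particle and of the peptidyl transferase neighbourhood.

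In the small subunit, the proteins of mRNA entry and decoding were Rps3 at -0.75, Rps2 at -0.63 and Rps23 at -0.33. Those of the platform and the mRNA exit were Rps26 at -0.98, Rps28 at -0.68, Rps14 at -0.54 and Rpsa at -0.32. These 4 were spread widely, with Rpsa the highest of the small subunit and Rps26 second to Rps7 among the lowest. Rps6, the substrate of the S6 kinases, went from 7.23 to 6.50 and was at -0.73 ± 0.20. Rpl13a and Rps3a, which have regulatory roles outside the ribosome, were at -0.67 and -0.66. Rps27a, made as a fusion with ubiquitin, went from 6.62 to 6.09.

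Some members are used as reference genes in quantitative PCR. Of 7 such genes, all 7 were lower, with a median of -0.65, from Rps18 at -0.87 to Rplp0 at -0.44. Rpl4 was at -0.73, Rpl13a at -0.67, Rpl27 at -0.65, Rpl32 at -0.64 and Rpl30 at -0.61. Of 23 genes mutated in Diamond-Blackfan anaemia, an inherited failure of red cell production, 22 were measured. Their median was -0.66 and 3 were 2-fold lower, Rpl15, Rps7 and Rpl11, close to the median of the whole family.

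Of 8 genes taken as paralogues by their symbol, 4 were measured. The probes of Rpl3l, a form of muscle, and of Rpl39l1, Rpl27l2 and Rps12l4 did not rise well above background in either sample. Of the 4 measured paralogues, Rpl22l1 was at -1.24, Rps4y2 at -0.84, Rpl37l1 at -0.68 and Rpl36al1 at -0.31. Their span was as wide as most of the family. One further probe each of Rpl28, Rps4y2 and Rpl36a was too dim on at least 1 array and was left out of the gene's value.

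The ribosomal protein probes were bright, and among other genes the difference between the arrays drifted downward with signal. Each member was therefore set against the 20 non-member genes nearest in signal. Those neighbours had a median of -0.33, so part of the shift was shared by bright genes of other kinds. Member minus neighbours had a median of -0.28, with -0.27 in the large and -0.29 in the small subunit, and 76 of the 77 lay below their neighbours. The exception was Rps23, 0.11 above. The members farthest below were Rpl15 at -1.47 and Rpl22l1 at -1.41, followed by Rps7 at -0.95 and Rpl12 at -0.86. For Rpl22l1 the neighbours were taken at its mean signal of 2.51, whereas its 2 probes lay at 5.47 and -0.45, so they match neither probe. Of the 77, 9 were below all 20 neighbours and 64 below at least 15 of them. Many bright members share the same 20 neighbours, so these counts are not separate comparisons. The same counts were not taken over all genes. Of the 65 measured mitochondrial ribosomal proteins described below, 33 lay below their own neighbours.

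**Figure D3:**
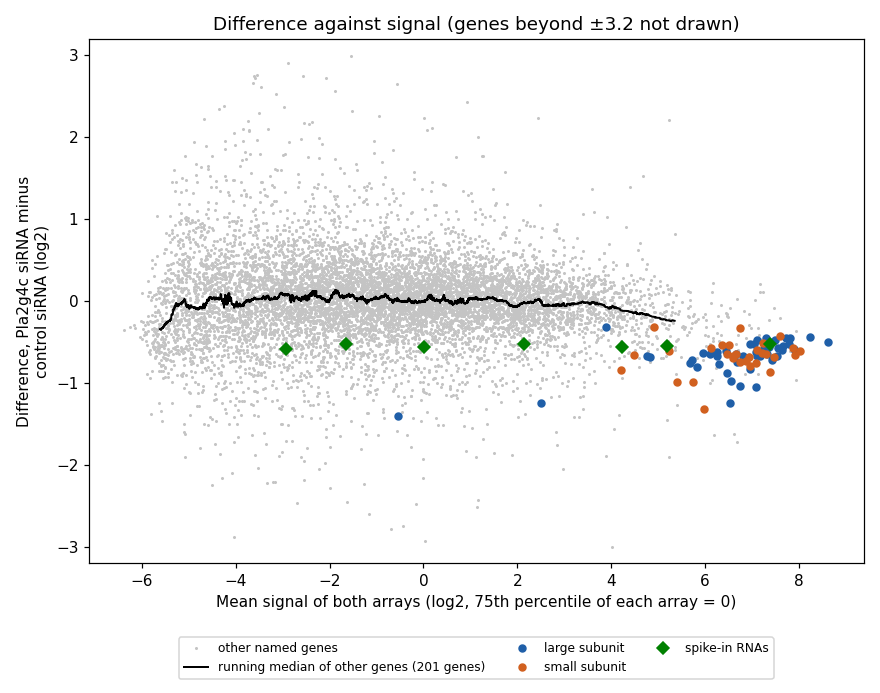
Difference (log2, Pla2g4c siRNA minus control siRNA) of each named gene against its mean signal (log2), with ribosomal protein genes in colour by subunit, the spike-in RNAs as diamonds and the running median of other genes as a line. Most ribosomal protein genes lie to the right of the line's end, where few other genes are found, and at about the height of the spike-ins, whose mean was -0.55.

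Few other genes were as bright, which limits that comparison, and a probe's brightness depends on its sequence as well as on the amount of RNA. Only 18 non-members lay above the median member signal, and 3 members were brighter than every non-member. For the 57 members whose 20 neighbours all lay within 0.5 log2 units of their signal, member minus neighbours had a median of -0.31, and 56 of the 57 were below. At or above the lower quartile of member signal there were 45 non-member genes, with a median of -0.37 and 40 below 0. Of these, 7 belonged to the TOP mRNAs and ribosomal components described below, with a median of -0.56, and the other 38 had a median of -0.31. Within the family the relation ran opposite to the drift of other genes. In 33 of 46 genes with at least 2 measured probes, the brightest probe was lower by less than the dimmest. Over the 77 members brighter genes were lower by less, with r = 0.48 by Pearson and rho = 0.45 by Spearman. Without the 2 genes of lowest mean signal, Rpl15 and Rpl22l1, r was 0.21. The points share both arrays and their scaling, so this is a description. Of the summed signal of 10640 measured, named probes, the member probes held 36.1% in control cells and 29.4% in cells with the Pla2g4c siRNA, a share that no scaling by 1 factor per array alters.

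A second yardstick gave a different zero point. The 7 spike-in RNAs well above background, added to the samples in set amounts, differed by a mean of -0.55 after the same scaling, from -0.59 to -0.52, over signals from -2.93 to 7.39. Set against them, the members had a median of -0.10, with 59 below and 18 above. Of all 9022 measured genes, 1038 lay below the spike-in mean. Of the 77 members, 56 were within the scanner error of the spike-ins. Farther below than that error were 18 members, among them Rpl15 at -0.86, Rps7 at -0.77 and Rpl12 and Rpl22l1 at -0.70. Above by more than the error were 3, Rpl36al1, Rpsa and Rps23. On that scale the median of all genes was 0.54 higher in the cells with the Pla2g4c siRNA. Spike-in scaling adds the same constant to every gene, so it cannot alter the position of the members relative to other genes and sets only where 0 lies. Whether the amount of mRNA, of added spike-ins or of label differed between the samples was not tested.

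Other genes known for a TOP tract were lower as well. The list held 18 such mRNAs, mainly of translation factors, and 17 were measured. All 17 were lower, with a median of -0.70, and 1 was 2-fold lower. Nap1l1, a histone chaperone, was at -1.08, and Eef2, which moves the ribosome along the mRNA, was at -0.97. Npm1, a nucleolar chaperone, was at -0.82, Tpt1 at -0.81 and Eef1a1, which delivers tRNAs, at -0.74. Highest was Btf3 at -0.35. Against 20 genes nearest in signal, ribosomal proteins left out, the 17 had a median of -0.46 and all 17 lay below. They spanned signals from -1.64 for Vim to 7.17 for Pabpc1, so the list is not limited to bright genes. Vim, the intermediate filament of mesenchymal cells, was at -0.76. Spike-in scaling left 13 of the 17 below 0 with a median of -0.15, and quantile normalization left 15 with a median of -0.38.

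The 3 ribosomal components with other symbols were lower too. Rack1, a scaffold on the small subunit, went from 6.18 to 5.48 and was at -0.70 ± 0.20. Fau, made as a fusion with a ubiquitin-like protein, was at -0.42. Only 1 of the 3 lay below 0 with quantile normalization or with spike-in scaling.

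The ribosomal proteins of mitochondria, which build a separate ribosome, did not share the shift. Of 66 with a probe 65 were measured, with a median of -0.01 and 33 below 0, which is the background of 51%. Only 1 was 2-fold lower, Mrps27 at -1.41. Against genes nearest in signal the median was -0.03, with 33 of 65 below. With spike-in scaling, which raised all genes, their median was 0.54, against -0.10 for the cytosolic proteins.

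**Figure D4:**
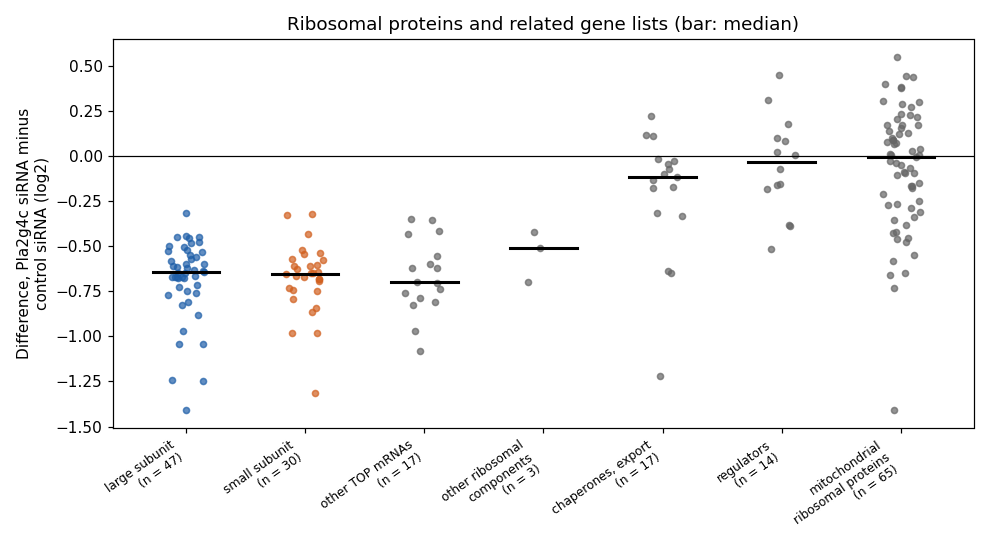
Difference (log2, Pla2g4c siRNA minus control siRNA) of each measured gene of the large and small subunit and of 5 related lists, with a bar at the median. The points of both subunits, of the other TOP mRNAs and of the ribosomal components with other symbols all lie below 0, whereas regulators and mitochondrial ribosomal proteins spread to both sides of it.

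Genes that control ribosomal protein synthesis were near 0 as a list. Of 16 listed regulators 14 were measured, with a median of -0.03, 7 below 0 and 0 at 2-fold in either direction. Myc, a transcription factor that drives ribosomal protein genes, went from 2.51 to 2.13 and was at -0.38 ± 0.20, and its partner Max was at -0.52. Eif4ebp1, the translation repressor that mTOR inactivates, was higher by 0.45 ± 0.20, from 4.53 to 4.98. Mtor itself was at 0.31 ± 0.23. Of the other genes around mTOR, Rheb was at 0.01, Tsc2 at 0.02, Rptor at 0.10 and Eif4ebp2 at 0.17, while Akt1s1 was at -0.07, Rps6kb1 at -0.16 and Tsc1 at -0.39 ± 0.40. Rps6kb2 was at 0.08. Larp1 and Rictor had no named probe. With spike-in scaling the median of the list was 0.51 and 0 of the 14 lay below 0.

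Chaperones and export factors that take ribosomal proteins and subunits through the nucleus had a median of -0.11 over 17 measured of 21 listed, with 14 below 0, or 3 with spike-in scaling. Ipo7, an importer of ribosomal proteins, went from 2.67 to 1.45 and was at -1.22 ± 0.20, the only one at 2-fold. Tsr2, the escort of Rps26, was at -0.64, while Rps26 was at -0.98. Nap1l4 was at -0.65. Xpo1, the exporter of both subunits, was at 0.22 and Eif6, which keeps the subunits apart, at 0.11. With the deposited scaling the median of the list was 0.02.

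The shift of the family depended on how the arrays were put on 1 scale. Its median was -0.62 with normexp background correction, -0.65 with median scaling and -0.52 with the deposited values, and all 77 were lower each time. Methods that make the arrays match along the whole signal range left less of it. The family's median was -0.27 with cyclic loess, with 71 lower, and -0.11 with quantile normalization, with 61 lower and 15 higher. Of the 100 brightest measured genes 57 were members, so at that end quantile normalization matches the arrays largely on the members themselves. Cyclic loess instead fits a smooth curve to all gene spots. How much of a shift that the members share is taken out by either method was not tested. Member minus neighbours stayed between -0.30 and -0.24 under these settings and with the brightest probe per gene. Rpl15 and Rpl22l1 were the members that remained at least 2-fold lower with both cyclic loess and quantile normalization, and with spike-in scaling 0 did. Of all 9022 genes, 257 were 2-fold lower with cyclic loess, 262 with quantile normalization and 68 with spike-in scaling. With the first 2 methods, 2 of 77 members is therefore near the share of all genes. The mean signals of Rpl15 and Rpl22l1, -0.55 and 2.51, lay far below the member median of 6.93. Both methods changed dim members less than bright ones. Rps7, with a mean signal of 5.97, went from -1.31 to -0.99 with cyclic loess and -0.85 with quantile normalization.

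**Figure D5:**
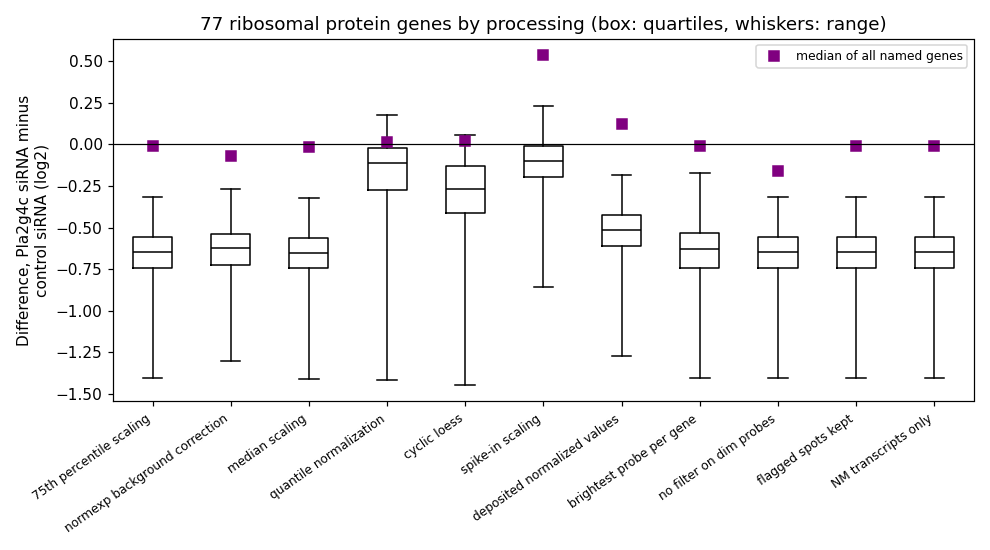
Differences (log2, Pla2g4c siRNA minus control siRNA) of the ribosomal protein genes under each processing, with boxes for the quartiles, whiskers for the range and a square for the median of all named genes. Every box lies below its square, and the median of the genes minus the square was -0.12 with quantile normalization, the smallest distance of the settings drawn.

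Markers of mammary epithelium and mesenchymal markers were both measured. Of 8 epithelial markers 7 were measured and Krt18 was not, and of 5 mesenchymal markers 4 were. Of 5 immune markers only Cd68 was measured and of 3 endothelial markers only Cdh5. The 7 epithelial markers had a median difference of -0.63, with 5 below 0. The keratins of basal cells were lower, with Krt5 at -1.72, Krt17 at -1.63 and Krt14 at -0.97, as was Cdh1 at -0.63, and Krt19 was at -0.30. Epcam was higher by 1.03 and Krt8 by 0.86. The 4 mesenchymal markers had a median of -0.19, from Vim at -0.76 to Col1a1 at 0.13, and Cd68 was at -0.39 and Cdh5 at -0.40. Their part in the shift of the ribosomal proteins was not tested. Well above background were 61.9% of gene spots for control cells and 63.1% for cells with the Pla2g4c siRNA. In bulk RNA, fewer cells of a type and less RNA per cell cannot be told apart.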

How the data were processed

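Per the labels, RMT-1 total RNA was converted to Cy3 cRNA, and each of 2 siRNAs had 1 Agilent one-colour array. The authors deposited spot intensities that Agilent Feature Extraction (version 10.10 in the submitters' processing notes, 10.10.1.1 in the headers) had background-subtracted and detrended within each array. Their outlier and background flags were used as deposited. A deposited intensity table equals the processed signal times 1.77 (control) and 1.50 (Pla2g4c siRNA), as computed here, and no source used here gives the origin of either factor.

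The processed signal was divided by the 75th percentile of gene spots on its array (852 and 1105) and taken to log2. Spots with an outlier flag on either array were left out and spots of a probe averaged. A probe was measured where every spot carried the flag for signal well above background, for each array (16840 of 30367), and a gene is the mean of its measured probes. Symbols came from RefSeq transcript accessions and Ensembl identifiers, both without versions, which together named 59.3% of probes. The array design predates GRCr8, so coordinates come from RefSeq's start regions only. No test was possible, and a call means 2-fold. Precision is limited by the number of arrays.

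The members and lists were chosen with earlier results of these data known. Named with values were the 6 lowest and 6 highest members of each subunit, those at 2-fold, paralogues, members with several probes and members of the role lists. Genes of other lists were named after their values were seen. Results on some genes are not reported here. Alternatives were normexp (offset 50, on the median spot signal, because the planned mean signal was not among the columns used), median, quantile, cyclic loess and spike-in scaling, the deposited values, the brightest probe, no filter on dim probes, flagged spots kept, 1.5-fold, 50 or 10 neighbours, and NM transcripts only. Neighbours without TOP mRNAs and members with close neighbours only were added after seeing the data. Steps were tested on simulated data. Python 3.11.15 (numpy 2.4.6, pandas 2.3.3, matplotlib 3.10.9) and R 4.3.3 with limma 3.58.1 were used.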

Additional observations from a re-analysis of the deposited data

How the results depend on the processing

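With 1 array per group no replicate could be left out, and no alternative carries a test. No paired analysis was possible because each group had 1 array. The median difference of the ribosomal protein genes moved by more than the scanner error to -0.11 with quantile normalization, -0.27 with cyclic loess and -0.10 with spike-in scaling. The number of members 2-fold lower was 6 as reported, 2 with quantile normalization, 2 with cyclic loess and 0 with spike-in scaling. At 1.5-fold 53 were lower. The 2-fold count was 4 with the deposited values, 5 with normexp and 7 with no filter on dim probes, where 81 members had a value. Among all 9022 measured genes it was 275 as reported, 262 with quantile normalization, 257 with cyclic loess and 68 with spike-in scaling. It was 190 with the deposited values, 154 with normexp and 765 of 15153 genes with no filter on dim probes. The 2 of 77 members with quantile normalization or cyclic loess were thus near the share of all genes. The count below 0 was 59 with spike-in scaling, 61 with quantile normalization, 71 with cyclic loess and all members otherwise. With spike-in scaling 1038 of all 9022 genes lay below 0. Large minus small subunit stayed between 0.01 and 0.07. Member minus neighbours was -0.26 with 50 and -0.34 with 10 nearest genes, -0.34 with neighbours taken without TOP mRNAs and ribosomal components, and -0.31 for members with close neighbours. Spike-in scaling moved the median of all genes to 0.54, the deposited values to 0.12 and no filter on dim probes to -0.16. The causes were not tested.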
